A study of Mus musculus with 9 samples.

Results

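The mature microRNAs mmu-miR-33-5p, mmu-miR-33-3p, mmu-miR-378a-3p and mmu-miR-378a-5p are described here. They were taken by name as the arms of hairpins that lie in introns of the lipid regulators Srebf2 (miR-33) and Ppargc1b (miR-378a), and are 4 of the 1915 mature names in the count table. Milk was collected on lactation day 10 from 9 primiparous female ICR (CD1) mice, its fat layer was washed, and small RNA of that fat was sequenced, 1 library for each dam. From 4 weeks of age, for 4 weeks before mating and then until milk was taken, fat supplied 10% of the dietary energy of 5 dams (control) and 60% of that of 4 dams (high-fat), and sucrose gave 7% of the energy in both. The control diet held 3.85 kcal/g and the high-fat diet 5.24 kcal/g. The labels name no genotype in either group, ICR is an outbred stock, and cage mates before mating are not named in the sources used here. Counts summed to between 837817 (control library 5) and 3897109 (high-fat library 2) per library, 828 names had at least 1 count, and 312 names, all 4 of these arms among them, were abundant enough to be tested.

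A microRNA gene that lies in an intron in the same direction as its host gene can be transcribed with it. The counts used here hold no host gene RNA, so that was not tested. The microRNA hairpin is cut into a 5p and a 3p arm, and either can be loaded into Argonaute to repress messenger RNAs that match its seed. Srebf2 encodes SREBP-2, the transcription factor that turns on cholesterol synthesis and uptake, and miR-33 from its intron is known to repress the cholesterol exporter Abca1 and genes of fatty acid oxidation. Ppargc1b encodes PGC-1beta, a coactivator of mitochondrial and lipid genes, and miR-378a from its intron is known for roles in energy metabolism, in brown fat and in the fat store of adipocytes. The mammary epithelium of lactation makes large amounts of both triglyceride and cholesterol-bearing membrane, and some fat globules carry part of its cytoplasm into milk.

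The hairpin of miR-33 lies at chr15:82198122-82198190 on the plus strand (GRCm38), in intron 16 of the 19-exon principal transcript of Srebf2, which runs the same way from 82147181 to 82205379. That intron is 1848 bases long, and the hairpin starts 335 bases after the exon before it, ends 1444 bases before the next and overlaps no exon. Both mature names matched the RefSeq table for GRCm38.p6 and those of miR-378a did not, so only sequences of the miR-33 hairpin are shown. The arms of this hairpin were recovered at nearly equal levels while their seeds differ. The seed, bases 2 to 8, is in capitals in each arm, and both arms are in capitals in the hairpin.
miR-33-5p (chr15:82198127-82198147): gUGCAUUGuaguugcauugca
miR-33-3p (chr15:82198167-82198188): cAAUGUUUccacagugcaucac
Hairpin (chr15:82198122-82198190): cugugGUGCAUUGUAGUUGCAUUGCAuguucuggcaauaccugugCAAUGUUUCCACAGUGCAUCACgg
The 5p arm takes bases 6 to 26 of the 69-base hairpin and the 3p arm bases 46 to 67, with 19 bases between them. In the predicted fold of lowest free energy, -32.2 kcal/mol, 16 of the 21 bases of the 5p arm pair with the 3p arm, and all 7 bases of its seed are paired. No other name among the 1679 mature names of the reference has either 7-base seed, and bases 2 to 7 of the 3p arm occur in 1 other, miR-409-3p. That reference holds 1623 of the 1915 names in the count table. No 18-base word of either arm was found in the GENCODE transcripts of any gene but Mir33, so reads of these arms have no second annotated source in that search.

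The levels of the 4 arms lay far apart. miR-378a-3p ranked between 21st and 27th in the libraries and held 0.859% ± 0.107 of all counts (SD, n = 9). Its partner arm miR-378a-5p ranked 123rd to 150th with 0.0109% ± 0.00277. miR-33-5p and miR-33-3p ranked 198th to 306th and 221st to 320th, with 0.00139% ± 0.000566 and 0.00128% ± 0.000425. A mature microRNA is read over its whole length, so no length correction enters these levels, although adapters join to different sequences with different ease and a comparison between sequences carries that uncertainty.

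The order of levels was tested on library-scaled counts (CPM, counts per 1e6) from library sizes scaled by the trimmed mean of M values (TMM), over the 3 neighbouring pairs of that order. miR-378a-3p exceeded miR-378a-5p in 9 of 9 libraries by 6.32 ± 0.33 on the log2 scale (SD), on average 80.05-fold. miR-378a-5p exceeded miR-33-5p in 9 of 9 libraries by 2.99 ± 0.71 on the log2 scale. In an exact two-sided sign-flip test over the 9 libraries both gave p = 0.00391, the smallest this design allows, and 0.00586 after Benjamini-Hochberg adjustment over the 3 pairs. The pairs and their order were taken from these same levels, so the p-values are no independent support for the order. miR-33-5p exceeded miR-33-3p by 0.10 ± 0.65, in 6 of 9 libraries, with an exact sign-flip p of 0.672, so the order of these neighbours was not distinguished from their spread.

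**Figure D1:**
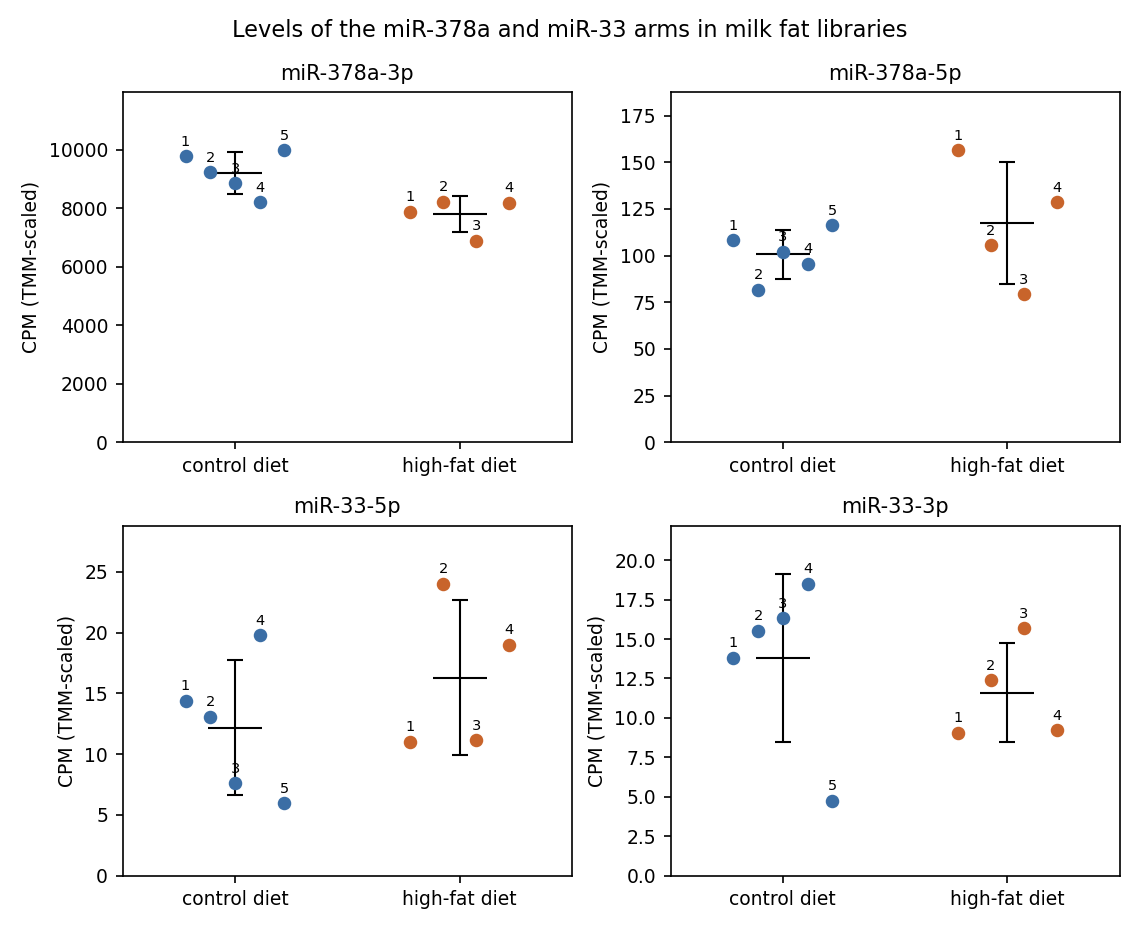
Level of each arm in each library as CPM with TMM-scaled library sizes, on linear axes that start at 0. Points are dams numbered by replicate, and the bar and whiskers are the mean and SD of 5 control and 4 high-fat libraries. The scales differ between panels: miR-378a-3p sits between 6889 and 9979 CPM, the miR-33 arms between 4.75 and 24.0 CPM, and the diets overlap in every panel.

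The comparison of diets called none of the 4 arms: the mean of miR-378a-3p was lower in high-fat milk by less than the test requires, and the intervals of the other three reached well to both sides of 0. miR-378a-3p, the main product of the Ppargc1b intron, measured 9786, 9230, 8852, 8209.7 and 9979 CPM in the 5 control libraries, in order of replicate, and 7876, 8221, 6889 and 8183 CPM in the 4 high-fat ones. Every high-fat library but the second lay below every control, and that one exceeded control library 4 by a small margin, so the diets overlapped. The means were 9211 ± 716 CPM (SD, n = 5) and 7792 ± 622 CPM (SD, n = 4). limma-voom gave a log2 fold change, high-fat over control, of -0.24 ± 0.11 (SE; 95% interval -0.49 to 0.02), with an adjusted p of 0.534 over the 312 tested names. In that fit 0% of the tested names passed an adjusted p of 0.05, while 10.3% (32) had an unadjusted p below 0.05, and 5.77% (18) had such a p with the lower level in high-fat milk. miR-378a-3p stood 36th by p, just outside those 32. Milk fat is a bulk sample, in which less RNA from a cell and fewer contributing cells or globules cannot be told apart.

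As a share of counts without TMM scaling, miR-378a-3p held 0.922% ± 0.0855 in control and 0.780% ± 0.0768 in high-fat milk, a difference of -0.143 percentage points or -15.5% of the control mean. By this measure 3 of the 4 high-fat dams were under the lowest control, the exception being high-fat library 1 at 0.856% (95% Wilson interval 0.844 to 0.868) against 0.805% (0.791 to 0.819) in control library 4. An exact two-sided permutation test over all splits of 5 and 4 libraries gave p = 0.0397, on a scale that so few libraries make coarse. Run on all 312 tested names, that test gave an unadjusted p below 0.05 for 8.97% of them (28) and called 0% after adjustment, and the adjusted p of miR-378a-3p was 0.504. Wilson intervals cover counting error only, and that error was small here, at most 1.09% of the count in any library, against a spread of 11.4% (SD over mean) among the 9 libraries.

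High-fat library 3, the lowest for miR-378a-3p at 6889 CPM, had the highest summed share of the 3 red cell markers, 0.0616% against 0.00227% to 0.0152% in the controls. It also had the highest share of the 6 striated muscle markers, 0.00979%, against at most 0.00137% in the controls. Of these 6 markers, 4 were detected in each diet group, while miR-206-3p and miR-208b-3p had 0 counts in all 9 libraries. Without high-fat libraries 1 and 3 the log2 fold change of miR-378a-3p was -0.16, and with single libraries left out it lay between -0.33, when high-fat library 2 was dropped, and -0.18, when library 3 of that diet was. The part of red cell or muscle RNA in the level was not tested.

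miR-378a-5p, the minor arm, measured 108, 81.7, 102, 95.7 and 116 CPM in the controls and 156, 106, 79.5 and 129 CPM in the high-fat group, in order of replicate. High-fat libraries 1 and 4 exceeded all controls, while high-fat library 3 lay below all of them. The log2 fold change was 0.19 ± 0.22 by limma-voom (95% interval -0.29 to 0.67), with an adjusted p of 0.740. High-fat library 1 carried much of that difference, since the log2 fold change was 0.05 without it and 0.35 without high-fat library 3. High-fat library 1 also had the highest summed share of the 5 leukocyte markers, 1.14%, against 0.0356% to 0.0762% in the controls. In the high-fat group the lowest share was 0.00777% and the median 0.156%, so library 1 was not alone above the controls. The part of leukocyte RNA in the miR-378a-5p level was not tested. The exact permutation test of shares gave p = 0.421 for this arm, adjusted p 0.737, with 0.0101% ± 0.00146 in control and 0.0119% ± 0.00392 in high-fat milk.

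miR-33-5p, the arm best known for repressing Abca1, was counted 25, 16, 21, 31 and 5 times in the controls, by replicate, and 28, 91, 22 and 35 times in the high-fat dams. Scaled to library size, these counts were 14.4, 13.1, 7.61, 19.8 and 5.94 CPM for the controls and 11.0, 24.0, 11.1 and 19.0 CPM for the high-fat dams. High-fat library 2 was above all controls and the other 3 lay within the control range. The means were 12.2 ± 5.55 CPM (SD, n = 5) and 16.3 ± 6.35 CPM (SD, n = 4), and limma-voom gave a log2 fold change of 0.48 ± 0.41 (95% interval -0.44 to 1.40), with an adjusted p of 0.683. That value was 0.14 without high-fat library 2 and 0.95 without high-fat libraries 1 and 3.

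miR-33-3p, the partner arm, was counted 24, 19, 45, 29 and 4 times in the control libraries, and 23, 47, 31 and 17 times in the high-fat libraries. These were 13.8, 15.5, 16.3, 18.5 and 4.75 CPM for the controls and 9.06, 12.4, 15.7 and 9.22 CPM for the high-fat dams. Control library 5 was the lowest of all 9, every high-fat library lay between it and the highest control, and 3 of the 4 were below the other 4 controls. The log2 fold change was -0.31 ± 0.36 by limma-voom (95% interval -1.12 to 0.49), with an adjusted p of 0.741, and it was -0.50 without control library 5 and -0.19 without high-fat library 1. The exact permutation test of shares gave p = 0.310 for miR-33-5p and 0.468 for miR-33-3p, with adjusted p of 0.680 and 0.773 over the 312 names.

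The arms of miR-33 rest on few reads. In control library 5, with 5 and 4 counts, the expected counting error was 44.7% and 50% of the value, while the other 8 libraries had 16 to 91 counts of miR-33-5p and 17 to 47 of miR-33-3p. The spread among all 9 libraries (SD over mean) was 42.4% and 34.2%, and the parts of counting error and of differences between dams in it were not tested. The intervals above still allow a log2 fold change of up to 1.40 for miR-33-5p and down to -1.12 for miR-33-3p. For miR-378a-3p the interval ended at -0.49 and 0.02.

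**Figure D2:**
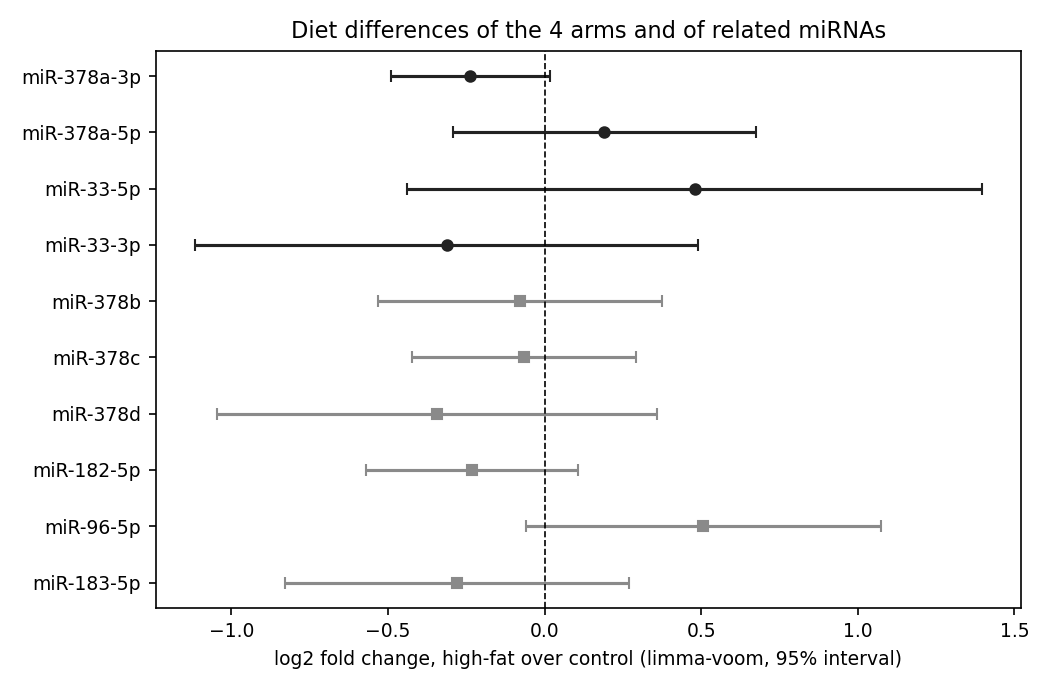
Log2 fold change, high-fat over control, with its 95% interval from limma-voom, for the 4 arms (black circles) and for 6 related microRNAs (grey squares). Every interval crosses 0, that of miR-378a-3p is the narrowest of the 10 and ends at 0.02, and that of miR-33-5p reaches from -0.44 to 1.40.

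Summed over both arms, the mir-33 hairpin held 0.00259% ± 0.000979 of counts in control and 0.00277% ± 0.000567 in high-fat milk, a difference of 0.000179 percentage points. Its sign turned without control library 5 (-0.000200) and without high-fat library 2 (-7.84e-05). The mir-378a hairpin held 0.933% ± 0.0865 and 0.792% ± 0.0803, nearly all of it the 3p arm, and 0.141 points less in high-fat milk. These sums are given without a test.

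Each hairpin had its own balance of arms. For mir-33, the 5p arm made up 51.0%, 45.7%, 31.8%, 51.7% and 55.6% of the reads of both arms in the controls, by replicate, and 54.9%, 65.9%, 41.5% and 67.3% in the high-fat dams. The Wilson intervals were wide, from 26.7% to 81.1% in control library 5 with 9 reads in all, and lay clear of 50% in 3 libraries: below it in control 3 and above it in high-fat 2 and 4. Among 102 hairpins with both arms counted at least 10 times on average, mir-33 was the third closest to equal arms by its mean log2 ratio, 0.10, while the median size of that ratio was 4.46. Both seeds shown above were thus read from this precursor in every library, with at least 5 reads of the 5p arm and 4 of the 3p arm.

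The diet difference in the mir-33 log2 ratio of 5p over 3p was 0.62 ± 0.39 (SE; 95% interval -0.25 to 1.48), from a control mean of -0.18 ± 0.54 (SD, n = 5) to a high-fat mean of 0.44 ± 0.70 (SD, n = 4). limma over the 102 hairpins gave an adjusted p of 0.551. That test called 0% of the hairpins after adjustment, with 7.84% (8) at an unadjusted p below 0.05, and the diets overlapped for mir-33. The difference was 0.92 without high-fat library 3 and 0.39 without control library 3.

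For mir-378a the 5p arm held only 1.09%, 0.878%, 1.14%, 1.15% and 1.15% of both arms in the controls, by replicate, and 1.95%, 1.27%, 1.14% and 1.55% in the high-fat dams. High-fat libraries 1, 2 and 4 exceeded all controls, and high-fat library 3 lay inside the control range. The mean share was 1.08% ± 0.118 for the controls and 1.48% ± 0.358 for the high-fat dams, and the log2 ratio of 5p over 3p differed by 0.43 ± 0.24 (SE; 95% interval -0.10 to 0.95). limma gave an adjusted p of 0.545 for it over the 102 hairpins. The difference fell to 0.28 without high-fat library 1, the library with the highest of the leukocyte shares given above.

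**Figure D3:**
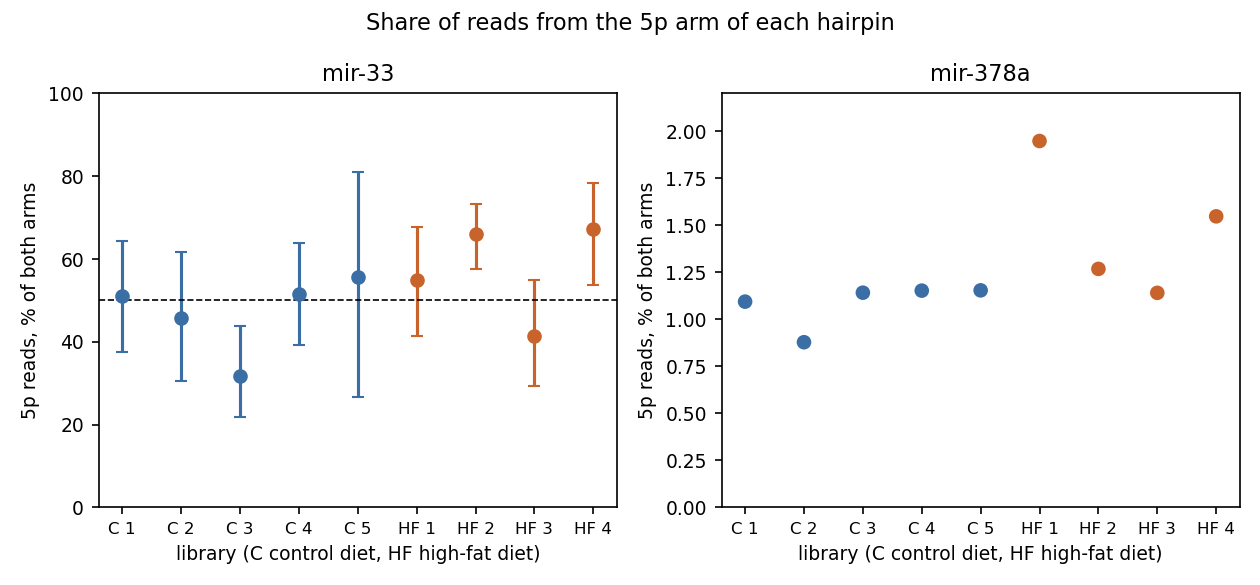
Share of 5p reads among the reads of both arms in each library, in percent, for mir-33 (left, axis 0 to 100, 95% Wilson intervals, dashed line at 50%) and mir-378a (right, axis enlarged, no intervals drawn). The arms of mir-33 share its reads about evenly, from 31.8% to 67.3%, while mir-378a gives 0.878% to 1.95% to its 5p arm, with high-fat libraries 1, 2 and 4 above every control.

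The hairpin of miR-378a lies on chromosome 18 at 61397835 to 61397900 on the minus strand (GRCm38), in intron 1 of the 12-exon principal transcript of Ppargc1b, which runs the same way from 61400431 down to 61298136. This intron is 76981 bases long and the hairpin begins 2389 bases after the first exon, so it lies near the start of the host transcript, while the miR-33 hairpin lies near the end of its own. It overlaps no exon. The 3 further names of the family, miR-378b, miR-378c and miR-378d, come from other genes and have sequences much like miR-378a-3p, so a read that fits several names may have been counted under more than one of them. How such reads were counted is not stated in the sources used here.

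miR-378c stood at 15.3% ± 2.12 of the miR-378a-3p count in the controls (SD, n = 5) and at 17.3% ± 2.02 of it in the high-fat dams (SD, n = 4). miR-378b stood at 1.45% ± 0.351 and 1.55% ± 0.132, and miR-378d at 0.199% ± 0.0634 and 0.186% ± 0.0394. All 3 had log2 fold changes below 0, -0.07 ± 0.16 for miR-378c, -0.08 ± 0.21 for miR-378b and -0.34 ± 0.32 for miR-378d (SE), and none was called by limma-voom. Their levels followed miR-378a-3p only loosely over the 9 libraries, with Pearson r of log2 CPM of 0.47 for miR-378c, 0.50 for miR-378b and 0.49 for miR-378d, and miR-378c was 44th among 308 names by that measure. These correlations are descriptions over libraries that share their depth scaling.

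Covariation among the 4 arms was computed for 6 pairs over the 9 libraries, with exact permutation tests. The arms of mir-33 gave r = 0.43 (p = 0.248, adjusted 0.605) and Spearman rho = 0.25 (p = 0.521, adjusted 0.880), and r was -0.12 without the 2 libraries farthest from the median, control 5 and high-fat 2, so the positive value rested on those. The arms of mir-378a gave r = 0.11 (exact p = 0.773, adjusted 0.883) and rho = 0.07 (p = 0.880, adjusted 0.880), and r was -0.56 without control 5 and high-fat 3. The largest value was that of miR-33-3p with miR-378a-5p, r = -0.62 (exact p = 0.0783, adjusted 0.470) and rho = -0.80 (p = 0.0138, adjusted 0.0830), with r = -0.73 without control 5 and high-fat 1. No pair passed an adjusted p of 0.05.

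The 3 tested names whose log2 CPM was most like that of each arm over the 9 libraries were listed as a description, chosen as the highest Pearson r among 308 names and so without a p. For miR-33-5p these were miR-96-5p (r = 0.96), miR-210-3p (r = 0.89), which is induced by hypoxia, and miR-30e-5p (r = 0.85). For miR-378a-5p they were miR-374b-5p (r = 0.86), miR-423-5p (r = 0.76) and miR-500-3p (r = 0.75). For miR-378a-3p they were miR-3470a (r = 0.85), miR-3470b (r = 0.83) and miR-3473a (r = 0.81), with 0.74, 0.75 and 0.54 without control 5 and high-fat 3. miR-3470a and miR-3470b had log2 fold changes of -3.44 and -4.41, and control 5 stood far above the rest at 317 and 346 CPM. The control libraries alone made both abundant enough to be tested, so their r is no support for a shared pattern beyond diet. For miR-33-3p, miR-5123 (r = 0.81), miR-497a-5p (r = 0.77) and miR-190a-3p (r = 0.75) led, but these fell to 0.31, -0.67 and -0.52 without control 5 and high-fat 1.

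miR-96-5p belongs to the miR-183 cluster with miR-182-5p and miR-183-5p, a cluster known as a target of SREBP-2, the product of the miR-33 host gene, and its 3 names were among the lists taken up for this comparison. miR-96-5p measured 1105, 1243, 807, 1536 and 751 CPM in the controls, by replicate, and 1153, 2110, 1198 and 1668 CPM in the high-fat dams. The highest and lowest libraries were those of miR-33-5p, high-fat 2 and control 5, and r remained 0.93 over the 7 libraries without them, with rho = 0.88 over all 9. The other two names of the cluster did not show this likeness, with r = -0.24 for miR-182-5p and 0.23 for miR-183-5p. The points share library and depth scaling, and miR-33-5p is counted 5 to 91 times in them. miR-96-5p was picked as the highest of 308 names in these same libraries, so the r over 7 of them is no independent support. Of those 308 names, 18.5% had r above 0.5 with miR-33-5p. A part of SREBP-2 in this likeness was not tested.

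Between diets miR-96-5p had a log2 fold change of 0.51 ± 0.26 (SE) with a limma-voom adjusted p of 0.536, beside 0.48 ± 0.41 for miR-33-5p. The values of miR-182-5p and miR-183-5p were -0.23 ± 0.15 and -0.28 ± 0.25. None of the cluster was called.

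**Figure D4:**
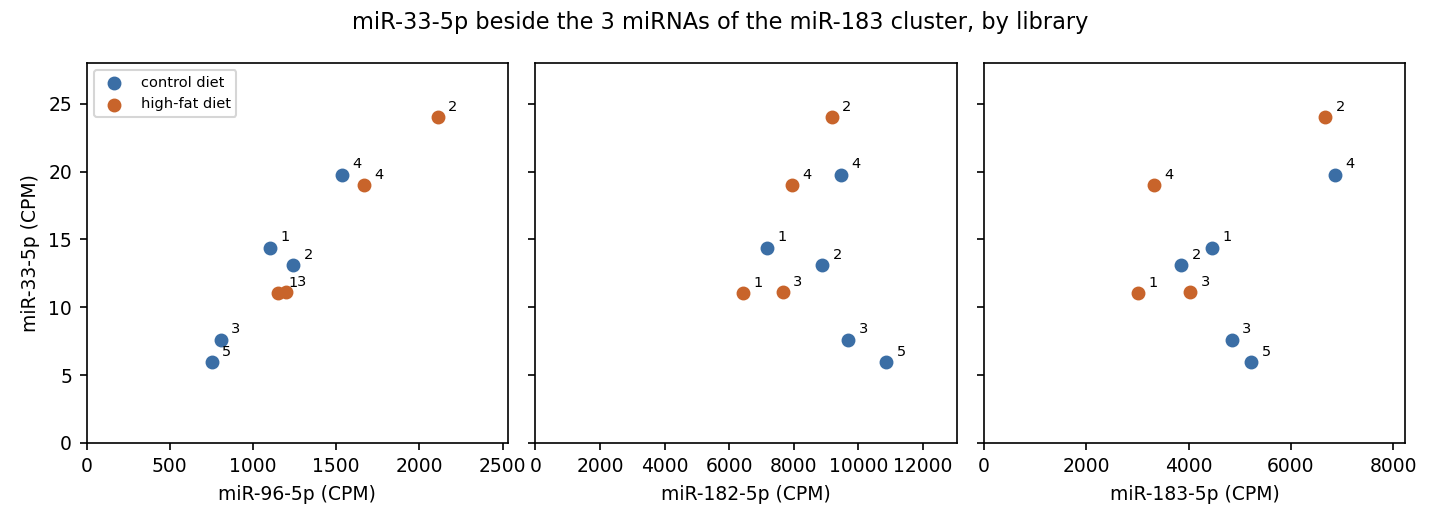
miR-33-5p (vertical axis) against miR-96-5p, miR-182-5p and miR-183-5p (horizontal axes) in CPM with TMM-scaled library sizes, 1 point for each of 9 libraries, numbered by replicate within its diet. The points rise together for miR-96-5p (r = 0.96 on the log2 scale) from control 5 to high-fat 2, and not for miR-182-5p (r = -0.24) or miR-183-5p (r = 0.23).

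The levels were then set beside lists of other microRNAs with roles in lipid metabolism. Of the 14 microRNAs on a cholesterol and lipoprotein list, 12 were tested, 4 with a log2 fold change above 0 and 8 below, median -0.06. The most abundant were miR-148a-3p, which is known to repress the LDL receptor, at 0.11 ± 0.13 (SE), and miR-26a-5p at 0.23 ± 0.18. On a brown fat and adipocyte list 13 of 18 were tested, 7 above 0 and 6 below, median 0.01, led by miR-143-3p at 0.01 ± 0.29 and miR-27a-3p at -0.07 ± 0.12. The 4 arms described here had 2 above 0 and 2 below, median -0.02, and all 312 tested names had 158 above and 154 below, with a median of 0.00. limma-voom called no member of any list at an adjusted p of 0.05, as it called none of the 312.

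Other microRNAs in introns of coding genes offered a comparison by gene structure. Of 22 listed, 20 were tested, 11 above 0 and 9 below, with a median log2 fold change of 0.03. The most abundant, miR-27b-3p and miR-103-3p, had values of -0.05 ± 0.14 and 0.10 ± 0.23 (SE). Of the 20, 4 had an unadjusted p below 0.05 beside 10.3% of all tested names, and they are named here after their values were seen: miR-26b-5p (0.41 ± 0.15), miR-126a-5p (1.56 ± 0.57), miR-335-5p (2.51 ± 1.10) and miR-23b-3p (-0.43 ± 0.17). miR-26b-5p was also the 1 name below that p on the brown fat and adipocyte list. The limma-voom adjusted p of those 4 lay between 0.389 and 0.442. miR-126a-5p and miR-335-5p had control means of 3.08 and 2.56 CPM, below the 5.25 CPM of the test filter. They passed that filter through the high-fat libraries, with means of 8.16 ± 1.37 and 27.1 ± 40.2 CPM (SD). Their place among the 4 is therefore no support for a diet difference.

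The source of the RNA was checked against markers. The label of milk fat was set beside the 6 markers of secretory epithelium, which held 21.1% to 25.2% of counts in control and 22.7% to 25.0% in high-fat milk. The liver-defining miR-122-5p, a marker of an organ in which miR-33 is much studied, held 0.00206% to 0.00926% in control and 0.00126% to 0.00446% in high-fat milk, and stromal markers 1.04% to 1.92% and 1.17% to 2.57%. Which cells gave the 4 arms was not tested.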

How the data were processed

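The deposited table holds raw read counts of known mouse miRNAs made by the authors, with a column for each dam and a row for each mature name of each precursor. The submitters' processing notes name cutadapt 1.9.1, an adapter trimmer, and the build GRCm38. Not given in the sources used here are the aligner, the counting rule, the miRBase release and any merging of PCR copies, and counts are taken as reads. Per the labels' protocols, the fat was washed in saline and spun to remove cells, and NEXTflex small RNA libraries were run on a HiSeq2500.

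Comma separators in 833 cells were removed. The highest row per name was kept in each library because 81 names have several rows, none of them an arm of mir-33 or mir-378a. limma-voom was planned from the start as the test in place of a count model, and it was run on the counts with the separators removed. Libraries of 1 diet differed by a chi-square per degree of freedom of at least 50.25, so none was a copy of another. This comparison cannot tell dams apart, and it left out pairs across diets.

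A name was tested if 4 or more libraries reached 5.25 CPM, which is 10 counts in the median library, and its counts summed to 15 or more. Library sizes were scaled by TMM, trimming 30% of ratios and 5% of levels, in R 4.3.3. Diet was the only term of a two-sided fit of log2 CPM by limma-voom (limma 3.58.1), with Benjamini-Hochberg adjustment over all 312 names at 0.05. Arm balance was log2 of 5p over 3p counts, each plus 0.5, in limma without voom weights. Exact tests used scipy 1.17.1, and the hairpin was folded with ViennaRNA 2.7.2. The scripts were tested on simulated data. A count of 0 allows up to 3 counts in a library.

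The arms and the lists were chosen with earlier results of these data known, so no p of a diet difference is adjusted over a list alone, although the design had foreseen one over the 4 arms. Tests of order, covariation and the relation with library total were adjusted over the pairs or arms compared, as stated beside them. Named miRNAs are the 4 arms, the other names of the miR-378 family and the miR-183 cluster, the 2 most abundant tested names of each other list, the 3 names most alike to each arm by Pearson r, and any called miRNA. Outside this rule, 4 names of the intronic list with an unadjusted p below 0.05, and the names called under alternatives, were named after their values were seen. Host introns were read from GENCODE M21 and sequences from RefSeq, in which 2 of the 4 arms and 1623 names of the table were matched.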

Additional observations from a re-analysis of the deposited data

Results flagged for a closer look

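Among 24 groups of 4 or 5 values searched, 2 held a library farther from the rest than Dixon's 95% limit allows, where chance gives 1.2. In control library 5, the shallowest, miR-33-3p stood at 2.39 on the log2 CPM scale from 4 counts, while the other 4 controls lay between 3.84 and 4.25. In control library 2 the log2 ratio of 5p over 3p of mir-378a was -6.81, while the other 4 controls lay between -6.50 and -6.41.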

How the results depend on the processing

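Over 29 results, 243 alternative values were computed, and 235 kept their direction and their side of the threshold or stayed within the spread. limma-voom called 0 of 312 miRNAs, against 4 without a filter on low counts (miR-10b-5p, miR-1195, miR-3470a and miR-3470b), 2 with library quality weights, 2 by limma with an intensity trend, and 0 to 4 when single libraries were left out (4 without control library 5). None of these was an arm of mir-33 or mir-378a. With the replicate number as a replicate block the count was 3. The numbers were not taken to pair the dams. Correlations of same-numbered libraries ran from -0.129 to 0.187. Libraries 1 and 3 correlated best with their own number and libraries 2 and 4 did not, so these weak values cannot decide whether the numbers pair them. The block for arm balance was chosen after seeing the data. Of the shares, the mir-378a difference was -0.439 points when the 10 most abundant miRNAs were left out of the total, since the total is then smaller. The log2 difference of miR-33-5p over miR-33-3p ranged from -0.0158 (without high-fat library 4) to 0.241 as single libraries were left out, and was -0.00615 without high-fat library 2. The cause was not tested. Arm balance at a minimum mean of 50 counts gave no value for mir-33, which has too few reads. Other scalings moved the median log2 fold change of all names by at most 0.0576. The miR-33 arms rest on 4 to 91 counts in a library, which limits the precision of their values.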

Other observations

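The relation of each arm's log2 CPM with log2 library total was computed after the levels had been seen, for the 4 arms over 9 libraries with exact permutation tests. miR-33-5p gave r = 0.46 (exact p = 0.210, adjusted 0.339) and rho = 0.18 (p = 0.644, adjusted 0.843), and r was -0.63 without control 5 and high-fat 2, so that the positive value rests on those 2 libraries. miR-33-3p gave r = 0.42 (exact p = 0.255, adjusted 0.339) and rho = 0.10 (p = 0.810, adjusted 0.843), with r = -0.27 without the same libraries. miR-378a-3p gave r = -0.52 (exact p = 0.149, adjusted 0.339) and rho = -0.50 (p = 0.178, adjusted 0.711), with r = -0.34 without them. miR-378a-5p gave r = 0.12 (exact p = 0.755, adjusted 0.755) and rho = 0.08 (p = 0.843, adjusted 0.843), with r = 0.46 without them.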
